A study of Mus musculus with 42 samples.

Results

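Transforming growth factor beta (TGF-beta), bone morphogenetic proteins (BMPs) and activins are secreted dimeric ligands, and 43 genes of their signalling pathway were followed among the 40701 gene symbols of the count table. They were chosen by symbol: 10 ligands, 4 latent TGF-beta binding proteins, 9 receptors and co-receptors, 8 Smads, 5 extracellular antagonists, 2 co-repressors and 5 responsive genes. Mice 12 weeks of age with obstruction of 1 ureter (UUO) gave the RNA, from dissected kidney cortex; strain and genotype are not given in the sources used here. Each library belonged to day 5 or day 10 of obstruction or to a contralateral kidney, labelled as the healthy control with no day given. In each of these 3 states, 4 male and 3 female libraries were made from RNA bound to anti-GFP beads, labelled proximal tubule (PT), and as many from RNA labelled total kidney (Total), which makes 42 libraries. Bead capture of GFP-tagged ribosomes (translating ribosome affinity purification, TRAP) recovers RNA in translation in the tagged cells. The protocol also kept the fraction that the beads left unbound, but the labels do not say whether Total is that fraction. The driver of the tag and whether replicates came from separate animals are not given either, so p-values measure the spread between these libraries.

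TGF-beta is stored outside cells in a latent complex held by LTBP proteins, and once freed it joins type I and type II receptor kinases. TGF-beta and activin receptors phosphorylate Smad2 and Smad3, BMP receptors phosphorylate Smad1, Smad5 and Smad9, and both kinds of Smad act with Smad4 on target genes, while Smad6 and Smad7 inhibit the pathway. In the kidney, TGF-beta is best known for driving matrix production in fibrosis, and BMP7 is a tubular product known to counter it.

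Promoter sequence is shown for 5 members with called differences and a short Smad-related motif in the promoter: Tgfb2 and Ltbp1, described for obstruction and its interaction with fraction, and Smad6, Smad9 and Id4, described for the sexes. Each runs from 250 bases before to 50 after a RefSeq transcription start (GRCm38.p6) in the direction of the gene. Capitals mark CAGACA (a Smad3/Smad4-type box), GGCGCC (a BMP-type GC-rich box) or the palindrome GTCTAGAC, searched on both strands, so that a match on the other strand reads TGTCTG.
Tgfb2, chr1:186705940-186706239, minus strand: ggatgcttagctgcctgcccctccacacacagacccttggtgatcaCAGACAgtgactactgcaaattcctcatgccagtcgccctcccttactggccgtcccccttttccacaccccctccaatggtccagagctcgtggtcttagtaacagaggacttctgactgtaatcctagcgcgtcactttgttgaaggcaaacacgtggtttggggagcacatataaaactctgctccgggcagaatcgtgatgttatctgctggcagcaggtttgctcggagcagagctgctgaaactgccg
Ltbp1, second start site, chr17:75178531-75178830, plus strand: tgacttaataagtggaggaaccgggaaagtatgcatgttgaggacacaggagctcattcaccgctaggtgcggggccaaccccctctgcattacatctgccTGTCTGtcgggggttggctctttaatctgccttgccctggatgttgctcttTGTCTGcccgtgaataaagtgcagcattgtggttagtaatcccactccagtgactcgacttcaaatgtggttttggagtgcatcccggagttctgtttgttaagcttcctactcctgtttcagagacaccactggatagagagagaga
Smad6, chr9:64022010-64022309, minus strand: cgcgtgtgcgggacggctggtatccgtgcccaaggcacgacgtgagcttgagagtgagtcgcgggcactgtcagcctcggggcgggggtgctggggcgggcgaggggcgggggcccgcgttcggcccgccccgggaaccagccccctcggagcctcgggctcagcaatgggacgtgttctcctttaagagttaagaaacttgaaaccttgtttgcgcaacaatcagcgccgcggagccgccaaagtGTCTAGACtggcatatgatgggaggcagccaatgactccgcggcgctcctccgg
Smad9, chr3:54755332-54755631, plus strand: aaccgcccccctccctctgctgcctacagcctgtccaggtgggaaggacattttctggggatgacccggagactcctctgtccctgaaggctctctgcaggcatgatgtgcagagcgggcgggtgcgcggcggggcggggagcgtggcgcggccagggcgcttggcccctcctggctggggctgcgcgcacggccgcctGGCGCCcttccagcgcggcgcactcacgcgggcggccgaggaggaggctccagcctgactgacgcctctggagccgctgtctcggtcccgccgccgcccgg
Id4, chr13:48260866-48261165, plus strand: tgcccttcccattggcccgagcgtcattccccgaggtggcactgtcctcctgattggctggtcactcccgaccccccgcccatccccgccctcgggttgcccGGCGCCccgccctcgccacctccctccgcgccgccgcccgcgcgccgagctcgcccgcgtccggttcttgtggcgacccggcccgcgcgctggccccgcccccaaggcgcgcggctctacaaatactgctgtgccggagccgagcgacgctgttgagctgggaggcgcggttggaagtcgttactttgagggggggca

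Of the 31 members with a promoter in the RefSeq table, 5 held CAGACA in at least 1 promoter (16.1%, against 23.6% of all 27025 genes), among them Tgfb2 and Ltbp1. GGCGCC was held by 12 (38.7%, against 13.4% of all genes), Smad9 and Id4 among them. GTCTAGAC was held by Smad6 alone (3.23%, against 0.248% of all genes). These are matches of letters, and which start site was used in these kidneys was not measured.

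Levels are in CPM, counts scaled to library sizes that were adjusted with TMM, given as the lowest, median and highest of 7 libraries. Total counts ran from 12.5 to 43.6 M in PT and from 9.31 to 23.8 M in Total. A gene was called, and is said to have risen, fallen or differed, at a Benjamini-Hochberg adjusted p under 0.05 over all genes in edgeR's quasi-likelihood test and at least a 2-fold change; values after ± are standard errors of log2 fold changes. PT libraries were split by the first principal component of the variation left after group means (28.4% of it). The sides are named by the gene Lars2, taken as a measure of library quality: 12 of high and 9 of low level (7960 to 43600 and 2620 to 5720 CPM). Each PT group holds both sides. In Total, Lars2 ran at 25800 to 30800 CPM in female day 10 libraries, against 4930 to 18100 in female contralateral ones, so day and Lars2 level cannot be told apart there. In males these ranges overlapped (1710 to 24500 and 7260 to 10400 CPM). Summed over 9 proximal tubule markers (Slc34a1, Lrp2, Cubn and others), median levels were 2130 CPM at day 5, 1980 at day 10 and 8550 in contralateral PT, against 1120, 833 and 5290 CPM in Total. Fibroblast markers (10 genes) summed to medians of 43.3 CPM at day 5 (33.1 to 60.9), 69.6 at day 10 (51.4 to 91.5) and 7.46 in contralateral PT (6.0 to 10.6), against 1080, 1190 and 126 CPM in Total. Macrophage markers (9 genes) summed to medians of 125 CPM at day 5 (101 to 180), 166 at day 10 (136 to 349) and 11.9 in contralateral PT (9.5 to 15.3), against 900, 1280 and 73.1 CPM in Total. No marker of these 3 lists was at 0 in a whole group. All 9 tested fibroblast markers and 8 of 9 macrophage markers rose in PT at both days, so markers of other cells were higher with obstruction in the bead-bound libraries too, and their part in the members' changes was not tested. In Total, fewer cells of a type and less RNA per cell cannot be told apart.

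The first question was what obstruction did to the pathway in PT, with both days set against the same contralateral libraries. At day 5, 19 of the 41 tested members rose and 1 fell, where 18.2% of all genes rose and 12.4% fell. At day 10, 19 rose and 2 fell, where 19.7% of all genes rose and 12% fell. Members that rose at both days were the 3 TGF-beta isoforms, Bmp2, Inhbb, Gdf15, all 4 LTBP genes, Tgfbr2, Tgfbr3, Smad1, Smad2, Fst, Fstl1 and Tgfbi. Bmp6 and Skil rose at day 5 alone and Inhba and Fstl3 at day 10 alone, while Bmp7 fell at both days and Smad9 at day 10. The median log2 fold change over the tested members was 0.80 at day 5 and 0.87 at day 10, against 0.05 over all genes at both days. Within the high-Lars2 libraries alone 16 members were called at day 5 and 21 at day 10, and within the low-Lars2 libraries 17 at each day. The share of all genes called in these smaller fits is not reported here, so these counts have no baseline.

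**Figure D1:**
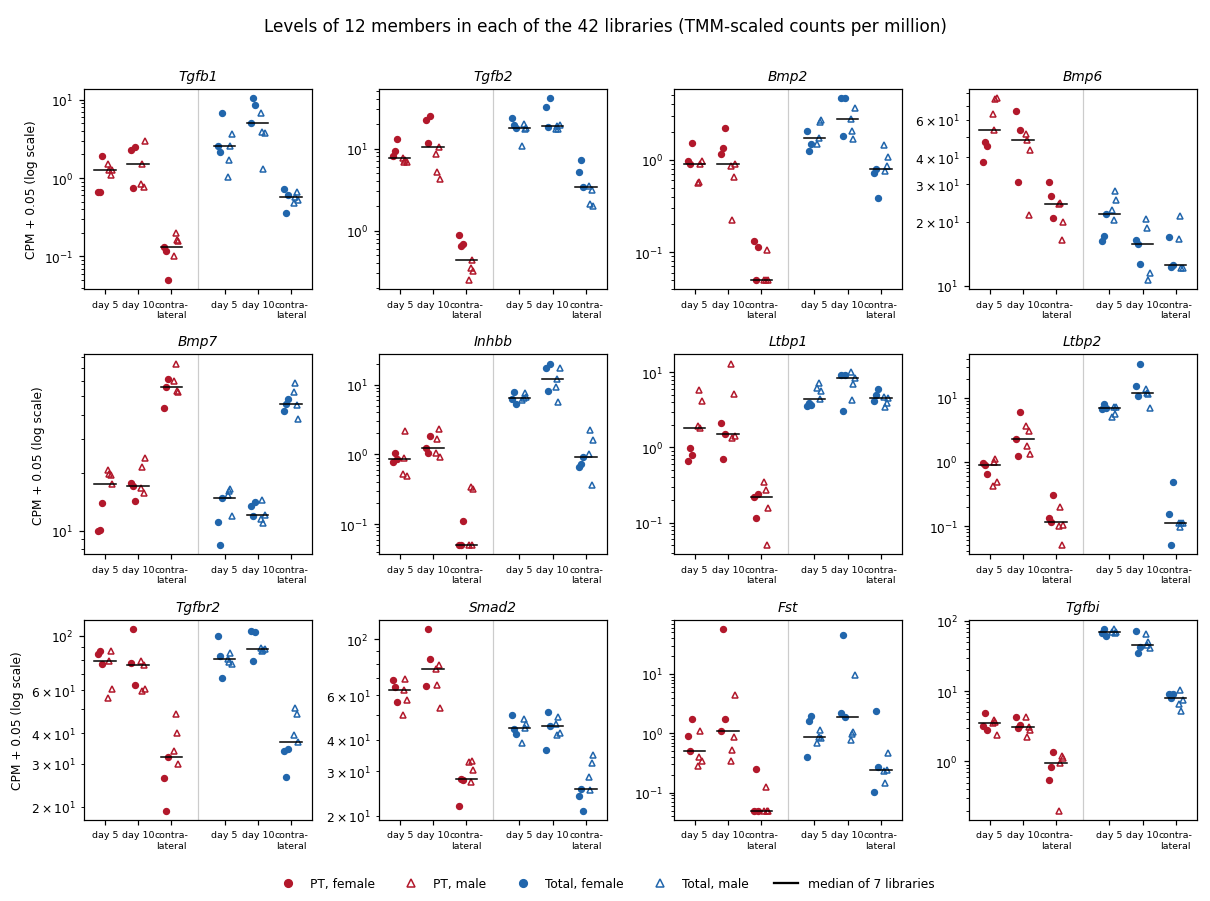
Levels of 12 members in each library (vertical axis, CPM + 0.05, log scale) in PT (left, red) and Total (right, blue) at day 5, day 10 and in contralateral kidneys; filled circles are females, open triangles males, black bars medians of 7. Tgfb2 lies at 4.22 CPM or above in every obstructed PT library and at 0.836 or below in every contralateral one, Bmp7 runs the other way, and Fst has 1 library at 57.3 CPM at day 10.

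Among the ligands, Tgfb2, 1 of the 3 TGF-beta isoforms, had the largest rise that does not rest on a few reads. It ran at 6.71, 7.55 and 13.1 CPM at day 5 and 4.22, 10.4 and 25.1 at day 10, against 0.2, 0.389 and 0.836 CPM in contralateral PT. No obstructed library overlapped a contralateral one, and the log2 fold change was 4.24 ± 0.27 at day 5 and 4.68 ± 0.27 at day 10 (edgeR adjusted p = 6.61e-11 and 1.33e-11). Tgfb1, the isoform most often studied in fibrosis, reached 0.610, 1.21 and 1.85 CPM at day 5 and 0.704, 1.46 and 2.88 at day 10, against 0, 0.0836 and 0.148 CPM in contralateral PT. Its groups did not overlap either, with log2 fold changes of 3.89 ± 0.55 and 4.40 ± 0.54. Tgfb3 rose too, by 1.82 ± 0.54 and 2.42 ± 0.52, with day 5 libraries (0.222 to 1.52 CPM) that overlapped the contralateral ones (0 to 0.611 CPM). Without male contralateral library 3 its day 5 value was 2.41, and within the high-Lars2 or the low-Lars2 libraries the day 5 call was lost (1.09 and 1.6, edgeR adjusted p = 0.366 and 0.0576).

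The BMP ligands split. Bmp7 lay at 9.88, 17.4 and 20.6 CPM at day 5 and 14.2, 16.9 and 24.0 at day 10, against 43.4, 56.1 and 74.2 CPM in contralateral PT, and fell in every obstructed library by a log2 fold change of -1.95 ± 0.15 and -1.71 ± 0.14 (edgeR adjusted p = 7.35e-10 and 3.63e-09). Bmp6, a BMP also known as an iron-regulated liver signal, rose at day 5, when all 7 libraries (38.2, 53.8 and 75.7 CPM) exceeded the contralateral ones (16.3, 24.0 and 30.6 CPM); the log2 fold change was 1.20 ± 0.20. At day 10 it stood at 21.4, 48.4 and 65.9 CPM with a log2 fold change of 0.93 ± 0.20, under the 2-fold minimum. Bmp2 had 104 reads over the 7 day 5 libraries and 151 over those of day 10, against 3 in all contralateral PT libraries, 4 of which had none. The ratios of its counts were 30.9 (95% counting interval 10.3 to 152) and 38.3 (12.8 to 188), which cover counting error only. Bmp4 was level, at medians of 26.3 and 32.3 CPM in obstructed PT and 22.7 in contralateral PT, with log2 fold changes of 0.18 ± 0.12 and 0.34 ± 0.12 that were not called.

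Activin subunits were scarce in contralateral PT. Inhbb, the beta B subunit, had 114 reads at day 5 and 199 at day 10 over 7 libraries, against 10 in contralateral PT, where 4 libraries had none. Its log2 fold changes were 3.8 ± 0.68 and 4.40 ± 0.66, or 4.88 and 5.48 without female contralateral library 3. Inhba, the beta A subunit, passed at day 10 alone, at 3.07 ± 0.89, with 71 reads against 7 in contralateral PT; the value was 4.06 without female and 3.89 without male contralateral library 1. At day 5 its 24 reads gave 1.87 ± 0.98, which was not called. Gdf15, a stress-induced ligand of the family that signals through the brainstem receptor GFRAL, rose at both days: 14.3, 22.2 and 31.7 CPM at day 5 and 13.04, 14.1 and 43.1 at day 10, against 3.48, 7.13 and 9.82 CPM, with log2 fold changes of 1.69 ± 0.28 and 1.38 ± 0.28.

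Compared per gene length, in the authors' deposited RPKM, the order of the ligands' medians in PT changed with obstruction. RPKM rest on library sizes without TMM. Library size only raised the median log2 fold change of all genes by 0.438 in PT at day 10, so RPKM of 2 states are not on the CPM scale. By median, day 10 PT held Bmp6 at 18.1, Bmp4 at 13.1, Gdf15 at 7.90, Bmp7 at 4.36 and Tgfb2 at 2.32 RPKM. Ranges there overlapped among Bmp6, Bmp4 and Gdf15 and between Bmp7 and Tgfb2. Bmp7 (highest 4.79 RPKM) lay below every library of Bmp6, Bmp4 and Gdf15 (lowest 7.36 RPKM). Contralateral PT held Bmp7 at 10.3, Bmp6 at 7.72, Bmp4 at 7.52, Gdf15 at 2.71 and Tgfb2 at 0.0527 RPKM, its first 3 with overlapping ranges. Tgfb1 had a median of 0.517 RPKM at day 10, below these 5 ligands, against 0.0252 RPKM in contralateral PT. Bmp6, Bmp4, Acvr2a and Fstl3 share 4.0% to 47.3% of their exon bases with a protein-coding gene on the other strand in GENCODE M21 (Txndc5, Gm15217, Orc4 and Prss57), and the strand setting of the counting is not given in the sources used here.

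All 4 LTBP genes, whose proteins bind latent TGF-beta (LTBP2 excepted) and associate with fibrillin fibres, rose in PT at both days from low levels. Ltbp1 ran at 0.610, 1.74 and 5.67 CPM at day 5 and 0.654, 1.45 and 12.99 at day 10, against 0, 0.167 and 0.3 CPM in contralateral PT, with no overlap and log2 fold changes of 3.36 ± 0.65 and 4.07 ± 0.63. Its highest library at day 10 was male library 1, where Smad1 was also highest of the males. Ltbp2 was the member that still rose between the days: 1.21, 2.23 and 5.93 CPM at day 10, against 0.375, 0.844 and 1.05 CPM at day 5. That log2 fold change was 1.85 ± 0.39 (edgeR adjusted p = 0.0359), the only call among 41 tested members where 0.442% of all genes were called. It was lost without any 1 of the 7 day 5 libraries, male day 10 library 1 or 3 or female day 10 library 3, 10 of the 14 libraries in all, when the value lay between 1.4 and 1.97. Over contralateral PT, Ltbp2 had changed by 2.95 ± 0.54 and 4.80 ± 0.51, Ltbp3 by 1.41 ± 0.32 and 2.62 ± 0.32, and Ltbp4 by 1.33 ± 0.33 and 2.20 ± 0.32. The Ltbp4 day 5 call was lost within the high-Lars2 libraries (0.76, edgeR adjusted p = 0.197).

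Of the receptors, Tgfbr2 and Tgfbr3 rose. Tgfbr2, the type II receptor that binds TGF-beta, rose to 55.5, 78.7 and 86.6 CPM at day 5 and 59.4, 76.1 and 107 at day 10, against 19.2, 32 and 48 CPM in contralateral PT, without overlap and by 1.28 ± 0.15 and 1.23 ± 0.15. Tgfbr3 (betaglycan), a co-receptor that presents TGF-beta2, rose by 1.99 ± 0.46 and 1.37 ± 0.45, with ranges that overlapped. At day 5 it ran at 14.1 to 22.0 CPM in the low-Lars2 and 5.56 to 7.64 CPM in the high-Lars2 libraries, and no alternative lost that call. The day 10 call was lost without female day 10 library 2 (1.13, edgeR adjusted p = 0.0513). The type I receptor Tgfbr1 (-0.01 ± 0.19 and 0.14 ± 0.19), the BMP receptors Bmpr1a, Bmpr2 and Acvr1, the activin receptors Acvr1b and Acvr2a and the decoy receptor Bambi were not called at either day, with log2 fold changes between -0.35 and 0.80.

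Of the Smads, Smad2 and Smad1 rose and the shared and inhibitory ones were not called. Smad2, which carries the TGF-beta and activin signal, lay at 50.1, 62.7 and 69.5 CPM at day 5 and 53.1, 76.1 and 110 at day 10, against 21.7, 27.8 and 33.0 CPM in contralateral PT. The groups did not overlap, and the log2 fold changes were 1.12 ± 0.13 and 1.41 ± 0.13 (edgeR adjusted p = 3.02e-07 and 1.25e-08). Smad1, on the BMP arm, changed by 1.17 ± 0.17 and 1.11 ± 0.17; the day 10 value was 0.96 without female and 0.99 without male day 10 library 1, just under 2-fold. Within the low-Lars2 libraries Smad1 stood at 0.96 at day 5 and 0.90 at day 10, and within the high-Lars2 ones Smad2 stood at 0.98 at day 5, all under 2-fold. Smad3 gave 0.80 ± 0.17 at both days, under the fold minimum. Smad4, Smad5, Smad6 and Smad7 had log2 fold changes between -0.15 and 0.42. Smad9 fell at day 10 by -1.07 ± 0.41, at 0.171, 0.410 and 1.36 CPM against 0.15, 0.96 and 3.1 CPM, ranges that overlap; that call was lost without contralateral library 2 of either sex, female day 10 library 1 or 3 or male day 10 library 4, when it lay between -1.04 and -0.79, and within the high-Lars2 (-0.93) or low-Lars2 libraries (-1.43), with the replicate block (-0.99), and on upper-quartile scaling (-0.98) or library size only (-0.63).

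Of the 3 tested antagonists, 2 rose at day 5 and 3 at day 10. Fst (follistatin), which traps activins, had 82 reads at day 5 and 1370 at day 10 over 7 libraries, against 4 in contralateral PT, where 5 libraries had none. Most of the day 10 reads came from female library 2, at 57.3 CPM; the median was 1.03 CPM and the next highest was male library 4 at 4.31. The log2 fold change at day 10 was 7.06 ± 1.25, or 5.15 without that female library, 6.27 without the male one, and 8.82 and 7.91 without contralateral library 2 of females and of males; at day 5 it was 4.12 ± 1.41, or 5.88 and 4.96 without those 2 contralateral libraries, and 3.61 with limma-voom, which did not call it (adjusted p = 0.0762). Both libraries numbered alike in Total were also the highest there, at 44.5 and 9.56 CPM. Fstl1, a secreted BMP-binding glycoprotein of stromal cells, rose by 1.73 ± 0.24 and 2.25 ± 0.24. Fstl3 rose at day 10 by 1.08 ± 0.27, a call that fell below 2-fold without female contralateral library 3 (0.98), female day 10 library 3 (0.94) or male day 10 library 2 (0.95) and was lost within the low-Lars2 libraries (1.16, edgeR adjusted p = 0.0553). The BMP antagonists Grem1 and Nog had too few PT reads to test, with 5 and 20 reads at day 5, 30 and 9 at day 10, and 9 and 3 in contralateral PT.

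The responsive genes did not move as a block. Tgfbi, a matrix protein named for its induction by TGF-beta, rose by 2.01 ± 0.32 and 1.89 ± 0.32, to 2.37, 3.52 and 4.83 CPM at day 5 and 2.17, 3.01 and 4.30 at day 10, against 0.15, 0.886 and 1.33 CPM. Id1, Id2, Id3 and Id4, inhibitors of basic helix-loop-helix factors that respond to BMP, had log2 fold changes between -0.61 and 0.36 and no calls. Of the co-repressors, Skil (SnoN) rose at day 5 by 1.08 ± 0.36 and stood at 0.87 ± 0.35 at day 10, while Ski gave 0.03 ± 0.13 and -0.02 ± 0.13. The Skil call fell below 2-fold without female contralateral library 2 (0.91), female day 5 library 1 (0.96) or male day 5 library 2 or 3 (0.98 and 0.95). Skil moved with the Lars2 split, at 67.8 to 77.9 CPM in the low-Lars2 and 27.4 to 30.5 CPM in the high-Lars2 day 5 libraries. Its log2 fold change at day 5 was 0.65 with a term for the split, 0.49 within the high-Lars2 libraries and 0.94 within the low-Lars2 ones, none of them called.

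Around the members, 13 of 34 tested other pathway genes rose in PT and 3 fell at day 5, and 13 rose and 2 fell at day 10. Over all genes in PT, 18.2% rose and 12.4% fell at day 5, and 19.7% rose and 12% fell at day 10. Nbl1, a BMP antagonist of the DAN family, rose by 3.75 ± 0.34 and 3.88 ± 0.34, and Gdf11, an activin-like ligand, by 3.62 ± 0.41 and 3.63 ± 0.40. Kcp, an enhancer of BMP signalling, fell by -1.35 ± 0.31 and -1.20 ± 0.31. Of 20 tested genes listed as TGF-beta targets, 18 rose and 1 fell at each day. The lists were chosen with earlier results of these data known, so their counts are no independent measure of the pathway. Timp1 was the largest rise, at means of 40.7 and 30.4 CPM against 0.182 CPM in contralateral PT, and Fn1 (fibronectin) changed by 4.17 ± 0.22 and 4.79 ± 0.23. Ctgf rose by 1.84 ± 0.58 and 2.47 ± 0.58 and the endothelial co-receptor Eng by 1.28 ± 0.27 and 1.74 ± 0.27, while Pmepa1, a feedback inhibitor, stood at -0.03 ± 0.23 and 0.56 ± 0.23. The listed target that fell was Nox4, an NADPH oxidase that proximal tubules express, at 121 and 125 CPM against 478 CPM. Of the listed targets, Col1a1, Col1a2, Col3a1, Acta2 and Postn are also on the fibroblast list above.

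In Total, 15 of 42 tested members rose and Bmp7 fell at day 5, where 19.2% of all genes rose and 13.3% fell. At day 10, 19 rose and Bmp7 and Smad9 fell, where 20.9% rose and 13.8% fell. Ltbp2 led, at 4.96, 6.92 and 8.02 CPM at day 5 and 6.84, 12 and 34.5 at day 10, against 0, 0.0610 and 0.442 CPM in contralateral Total, with log2 fold changes of 6.08 ± 0.40 and 7.26 ± 0.40 (6.69 and 7.88 without female contralateral library 3). The size of this change rests on 10 reads over the 7 contralateral Total libraries, 4 of them in female library 3. Bmp7 fell by -1.88 ± 0.14 and -1.90 ± 0.14, with 8.33 to 16.5 CPM at day 5 and 10.9 to 14.3 at day 10, against 38.1 to 58.8 CPM. The 3 TGF-beta isoforms rose too: Tgfb1 by 2.43 ± 0.39 and 3.42 ± 0.39, Tgfb2 by 2.25 ± 0.20 and 2.66 ± 0.20 and Tgfb3 by 2.41 ± 0.18 and 2.8 ± 0.18. They were joined at both days by Bmp2, Gdf15, Ltbp3, Ltbp4, Tgfbr2 and Smad1, each at 1.05 to 2.21. Inhba rose by 2.71 ± 0.38 and 4.11 ± 0.38 and Inhbb by 2.74 ± 0.32 and 3.75 ± 0.32. Fstl1 had medians of 101 and 104 CPM against 15.9, and Tgfbi of 69.7 and 44.7 CPM against 8.01.

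Members called in PT without a call in Total were Ltbp1, Smad2 and Tgfbr3 at both days, Bmp6, Fst and Skil at day 5 and Fstl3 at day 10. Members called in Total without a call in PT at the same day were Inhba and Id3 at day 5 and Tgfbr1, Bambi, Id3 and Skil at day 10; whether the fractions differed for them is given by the interaction below. Id3 rose by 1.19 ± 0.20 and 1.36 ± 0.20, Tgfbr1 at day 10 by 1.13 ± 0.19 and Bambi by 1.37 ± 0.26. Fst rose at day 10 by 3.99 ± 0.97, or 2.47 without female day 10 library 2, 3.09 without male day 10 library 4 and 5.47 without female contralateral library 2. Calls close to 2-fold fell below it without a single library: Ltbp3 at day 5 (0.9986 without female day 5 library 3), Smad1 at day 5 (0.95 without female day 5 library 1, 0.99 without male day 5 library 3 and 0.9985 without male contralateral library 3), Skil at day 10 (0.93 without female library 1, 0.84 without male library 3) and Smad9 at day 10 (-0.98 without female day 10 library 3, -0.95 without male contralateral library 1). Between the days, Ltbp2 (1.18 ± 0.24) and Inhba (1.4 ± 0.31) were higher at day 10, where 0.393% of all genes were called; each call was lost without any 1 of 7 of the 14 libraries. For both these were the 3 female day 5 libraries, female day 10 library 3 and male day 5 libraries 1 and 2, with male day 5 library 3 for Ltbp2 (0.86 to 1.23 without them) and male day 10 library 4 for Inhba (1.14 to 1.42).

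**Figure D2:**
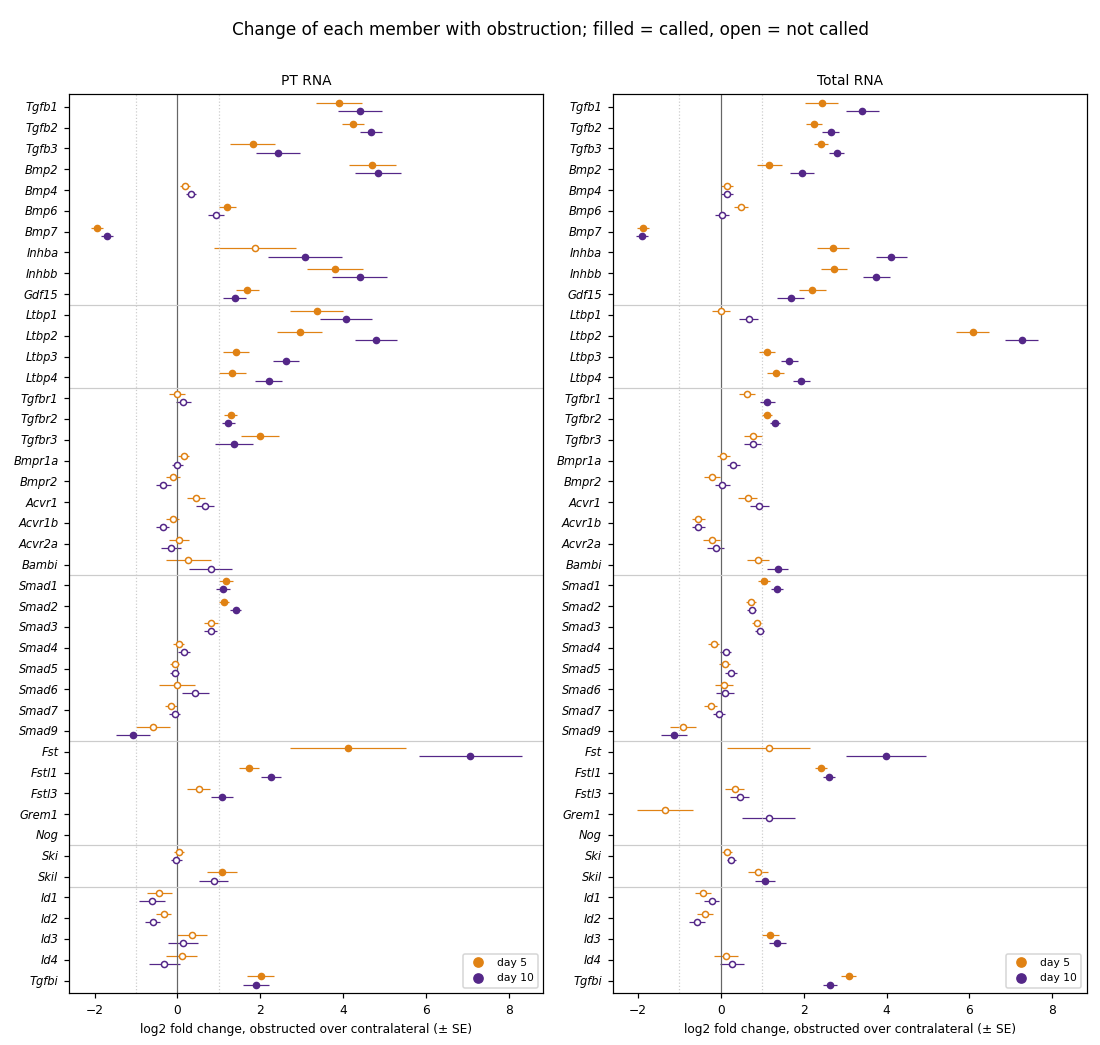
Log2 fold change of each member, obstructed over contralateral, with its standard error (horizontal axis), in PT (left) and Total (right); orange is day 5, purple day 10, filled points were called and grey lines separate the roles. Ligands and LTBP genes lie mostly to the right and Bmp7 to the left in both panels, Smad4 to Smad7, Bmpr1a and Bmpr2 lie near 0 in both, and Ltbp1 stands at 3.36 in PT and -0.00 in Total at day 5.

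PT was next set against Total in the same state. In contralateral kidneys 18 of 42 tested members were lower in PT and none higher, where 22.9% of all genes were lower and 1.16% higher. At day 5, 20 were lower and 1 higher, where 23.8% were lower and 4.02% higher. At day 10, 20 were again lower and 1 higher, where 23.0% were lower and 7.07% higher. Labels pair the fractions by number, and contralateral libraries of a number deviated together; with the replicate block Fst was called lower as well, making 19.

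Bmp6 was the member higher in PT, with 38.2 to 75.7 CPM in PT against 16.1 to 27.9 in Total at day 5 and 21.4 to 65.9 against 10.6 to 20.5 CPM at day 10. These ranges did not overlap, and the log2 differences were 1.37 ± 0.19 and 1.59 ± 0.19. In contralateral kidneys Bmp6 gave 0.67 ± 0.19, which was not called. Bmp4, Bmp7, Gdf15, Tgfbr2, Smad2, Smad3, Smad4, Ski and Id2 were called in no state, with log2 differences between -0.29 and 0.83. Fstl1, Tgfbi and Grem1 were lower in PT in all 3 states. Fstl1 differed by -4.41 ± 0.20 at day 5, -4.03 ± 0.20 at day 10 and -3.71 ± 0.21 in contralateral kidneys, and Tgfbi by -4.33 ± 0.24, -3.95 ± 0.24 and -3.23 ± 0.26. Grem1, on few PT reads, differed by -4.13 ± 0.89, -4.44 ± 0.68 and -4.64 ± 0.80. In contralateral kidneys Ltbp1 differed by -4.86 ± 0.52, and Bmp2 had 3 reads in PT against 96 in Total, a ratio of counts 31.5-fold lower (95% counting interval 10.5 to 156). Ltbp3 and Ltbp4 were lower by -3.15 to -2.13 in all 3 states, and Smad6 and Bmpr2 were lower in PT in all 3, at -2.35 to -1.11.

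Several fraction calls lay close to 2-fold. Those lost without single libraries were Bmp2 at day 5 (12 of 14 libraries), Tgfb2 at day 5 (9) and day 10 (8), Id4 at day 5 (7) and in contralateral kidneys (4), Bmpr1a at day 10 (4, being PT libraries male 3 and female 2 and Total libraries female 1 and 3) and Bmpr2 at day 5 (3, being Total libraries male 3 and female 1 and 2), where the values lay between -0.999 and -0.79. Tgfb1 at day 5 stood at -0.88 without female Total library 3, and Tgfbr3 in contralateral kidneys at -0.97 without male PT library 4. Without male contralateral PT library 3, Tgfb3 differed by -3.1 in place of -2.51. Without female contralateral PT library 3, Inhbb differed by -4.98 in place of -3.903, and without contralateral PT library 1 of females or males Inhba by -3.896 or -3.73 in place of -2.92. At day 5 Inhba was at -4.62 without male PT library 4, in place of -3.78. Grem1 lay between -5.53 and -3.72 without female contralateral PT library 2, female contralateral Total library 3, male day 5 PT library 4 or female day 10 PT library 1.

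**Figure D3:**
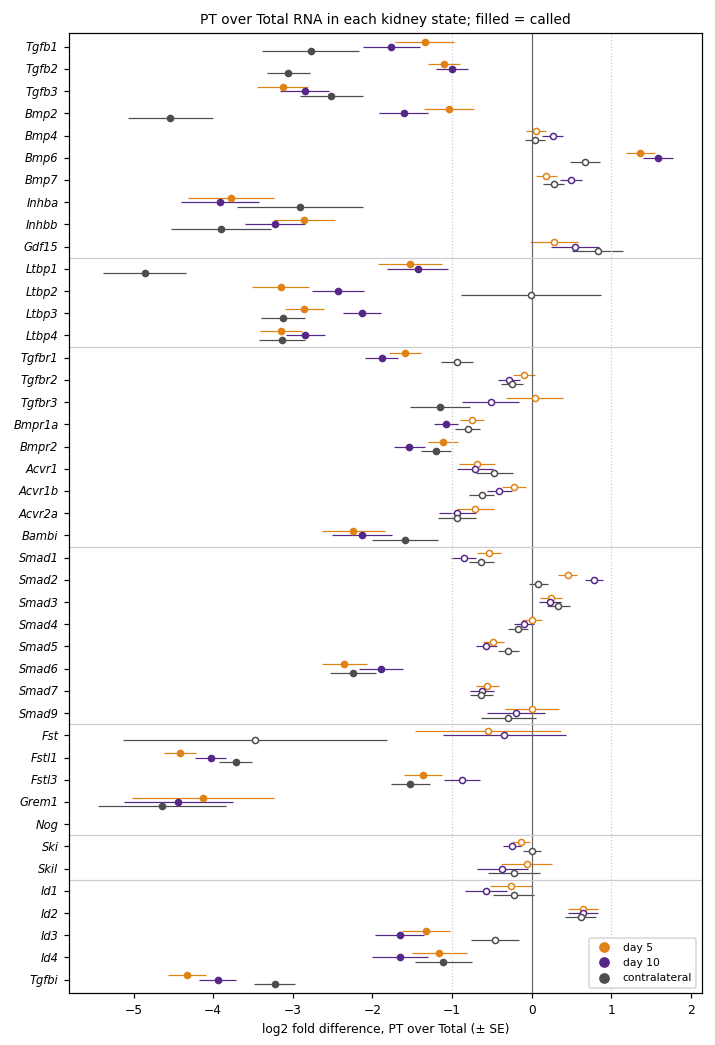
Log2 difference of each member, PT over Total, with its standard error (horizontal axis) at day 5 (orange), day 10 (purple) and in contralateral kidneys (grey); filled points were called. Bmp6 lies above 1 at both days, and Tgfb2, Bmp2 and Ltbp1 lie closer to 0 in obstructed than in contralateral kidneys.

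Whether obstruction moved a member differently in PT and in Total was tested by the interaction, in which 4.27% of all genes were called at day 5 and 5.76% at day 10. At day 5 it was called for 5 of 42 members and at day 10 for 3. Ltbp1 rose more in PT, by 3.34 ± 0.67 at day 5 and 3.43 ± 0.65 at day 10 on the log2 scale (edgeR adjusted p = 0.000887 and 0.000353). In Total it stood at 3.46 to 7.17 CPM at day 5 and 2.99 to 9.94 at day 10, against 3.38 to 5.86 CPM in contralateral kidneys. Tgfb2 rose more in PT, by 1.96 ± 0.34 and 2.05 ± 0.34. Bmp2 did so too, at 3.50 ± 0.64 and 2.93 ± 0.64, or 4.32 and 3.75 without male contralateral PT library 3, but rests on 3 reads in contralateral PT.

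All 3 were still called lower in PT than in Total at both days, so as groups their PT levels came closer to those in Total. The lower calls of Bmp2 at day 5 and Tgfb2 at both days were lost without single libraries, as given above. Ltbp1 in male day 10 PT library 1 (12.99 CPM) exceeded every day 10 Total library (highest 9.94 CPM). The direction of these interactions depended on the scale: on log2(RPKM + 1), where the low contralateral PT levels are pressed towards 0, Tgfb2 and Bmp2 reversed at both days and Ltbp1 at day 10, and none of the 3 was called on that scale or on log2(RPKM + 0.1) at either day. At day 5 Ltbp2 (-3.14 ± 0.90) and Tgfbi (-1.10 ± 0.34) rose less in PT. The value of Ltbp2 rests on 10 reads in contralateral PT and 10 in contralateral Total. The call of Tgfbi was lost without any of 24 of the 28 libraries, when it lay between -1.14 and -0.88, and also with the replicate block (-1.13, edgeR adjusted p = 0.0504). That of Ltbp2 was lost without female contralateral PT library 3 (-2.71), Total library 1 (-3.01) or 2 (-2.81), or male contralateral PT library 1 (-3.17), 2 (-2.83) or 4 (-3.15), and the value was -3.76 without female contralateral Total library 3. Smad2, Tgfbr3, Bmp6, Fst, Fstl3, Inhba, Id3, Tgfbr1, Bambi and Skil had no called interaction.

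The sexes were compared in PT. In contralateral kidneys 4 of 41 tested members differed, where 4.13% of all genes did, and all 4 were higher in females. Id1 had 90.1, 116 and 36.5 CPM in the 3 female libraries, against 28.6, 8.34, 6.22 and 10.4 CPM in the 4 male ones, a log2 difference of 2.57 ± 0.44 (edgeR adjusted p = 0.000832). Id4 had 29.1, 12.7 and 10.6 CPM in females, against 6.2, 1.4, 0.555 and 4.21 CPM in males (2.45 ± 0.54). Smad6 had 3.35, 2.64 and 1.39 CPM in females, against 0.3, 0.738, 0.278 and 0.702 CPM in males (2.27 ± 0.48). Smad9 had 2.43, 3.10 and 2.65 CPM in females, against 0.15, 0.96, 0.5 and 0.27 CPM in males (2.56 ± 0.56). The sexes did not overlap for these members. Over all genes, 12.9% had libraries of the sexes that did not overlap. When only the groups compared entered the fit, the calls of Id1 (2.57, edgeR adjusted p = 0.0753) and Id4 (2.47, adjusted p = 0.158) were lost. The Id4 call was also lost without female library 1 (1.87, edgeR adjusted p = 0.0723), and without male library 1 the differences of Id1 and Id4 were 3.27 and 3.05. Id3 gave 1.70 ± 0.51 and was not called. The Id genes and Smad6 are known targets of the BMP Smads.

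At day 5 the order was turned for Id1, which lay at 12.7, 14.3 and 23.4 CPM in females, against 25.0 to 47.4 CPM in males, so its change with obstruction differed between the sexes by -3.63 ± 0.63 on the log2 scale (edgeR adjusted p = 0.00911). It was the only member called in this interaction, where 0.502% of all genes were, and the adjusted p was 0.0515 and 0.0506 without female day 5 library 1 or 2; without male contralateral library 1 the value was -4.34. Id3 (-3.27 ± 0.74), Id4 (-2.97 ± 0.77), Smad9 (-3.52 ± 0.82) and Smad6 (-2.23 ± 0.67) had the same sign without a call. These 4 and Id1 were among 10 members with an unadjusted p under 0.05 in edgeR, with Bmp6, Bmp7, Tgfbr2, Smad5 and Smad7. Tgfbr2 levels ran the other way. They went from 19.2 to 31.98 CPM in contralateral females to 76.9 to 86.4 at day 5, and in males from 29.9 to 47.99 to 55.5 to 86.6. Of the 41 tested members, 29 had negative and 12 positive values. At day 10 no member was called, where 0.208% of all genes were; 4 members (Id1, Smad6, Tgfbr2 and Smad2) had an unadjusted p under 0.05 in edgeR, and DESeq2 called none. Tgfb2, whose day 10 PT libraries ran at 11.7, 22.3 and 25.1 CPM in females against 4.22 to 10.4 CPM in males, gave 0.27 ± 0.57 for that interaction.

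**Figure D4:**
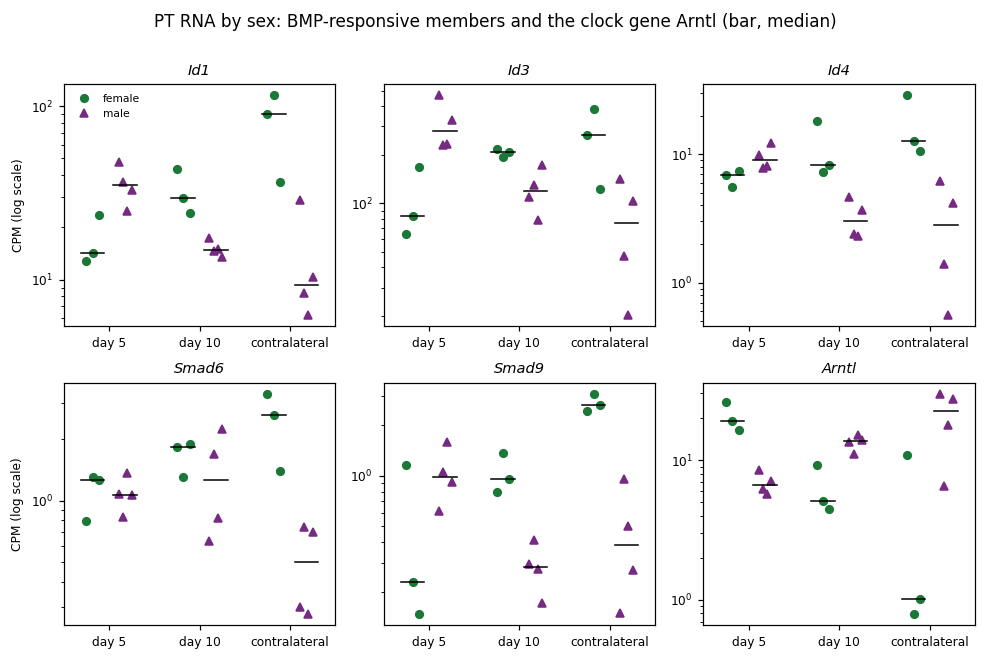
PT levels (vertical axis, CPM, log scale) of Id1, Id3, Id4, Smad6, Smad9 and the clock gene Arntl in female (green circles) and male (purple triangles) libraries at day 5, day 10 and in contralateral kidneys; bars are medians. The 4 called members are higher in females in contralateral kidneys and Id1 and Id3 lower in females at day 5, and the sex with the higher Arntl changes from state to state.

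Clock genes, chosen after their values were seen, also differed between the sexes by median. Arntl, an activator of the circadian clock, had a median of 1.01 CPM in female and 22.6 in male contralateral PT libraries, 19.2 in females and 6.62 in males at day 5, and 5.08 in females and 13.7 in males at day 10. Dbp, an output gene of the opposite phase, had medians of 23.5 CPM in females and 3.00 in males in contralateral PT, 1.54 and 6.51 at day 5, and 8.60 and 3.47 at day 10. Id1 medians were 90.1 CPM in females and 9.36 in males in contralateral PT, 14.3 and 34.9 at day 5, and 29.6 and 14.8 at day 10, so by median the sex with more Id1 was in each state the one with more Dbp and less Arntl. Single libraries within 1 sex and state kept no such order. Day 10 female PT libraries 1 to 3 had 9.16, 5.08 and 4.44 CPM of Arntl with 43.6, 29.6 and 24.2 CPM of Id1. Day 5 female ones ran the other way, with 26.15, 19.19 and 16.34 CPM of Arntl and 12.7, 14.3 and 23.4 CPM of Id1. Total showed the same order for Id1 in contralateral kidneys, at 49.1 to 70.5 CPM in females against 15.8 to 31.2 CPM in males. The hour of collection is not given in the sources used here, and the part of the clock in these sex differences was not tested.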

How the data were processed

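TRAP-seq libraries of 42 samples were deposited as 2 tables. The first holds raw counts of reads per gene symbol, as deposited by the authors, made with STAR 2.0.4b, Subread and featureCounts 1.4.5 per the submitters' processing notes, while the genome build, annotation and strand setting are not given in the sources used here. The second holds RPKM, deposited by the authors, which served to compare levels between genes and as an alternative scale. Each column was matched to a sample by its title, and no other sample columns were present.

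Groups were sex by state by fraction, with the sexes weighted equally. Counts were tested with edgeR 4.0.16 (TMM, quasi-likelihood, R 4.3.3) over genes that passed its default expression filter: 14932 genes in PT, 16782 in Total and 17110 across both. Grem1 and Nog in PT and Nog in the other fits did not pass. A call needed at least a 2-fold change with a Benjamini-Hochberg adjusted p below 0.05. The standard error is the log2 fold change divided by the square root of the F statistic. Ratios of 1 to 3 counts carry exact 95% counting intervals. Levels rest on 9.31 to 43.6 M counts per library. Within-group library pairs all differed by more than counting error.

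The members and gene lists were chosen with earlier results of these data known. Members were named with values where called; from the other lists, no more than 4 called genes per direction, taken by size of change and averaging 1 CPM or more on a side, were eligible besides Ctgf, Pmepa1 and Eng; some eligible genes are not reported here. Arntl and Dbp, and the BMP target genes with their values, were named after their values were seen. Libraries were taken as paired by number where the correlation of same-numbered deviations exceeded 0.1 in all 7 pairs. Only contralateral PT and Total met this, at 0.351 to 0.677. PT and Total at day 10 (0.075 to 0.866) exceeded it in 6 pairs, as did day 10 and contralateral Total (0.09 to 0.429). PT and Total at day 5 (-0.249 to 0.806) did so in 5. The main fits hold no term for such links, so their standard errors leave them out. Alternatives were DESeq2 1.42.0, limma 3.58.1 with voom or on log2(RPKM + 1) and log2(RPKM + 0.1), 3 other scalings, other filters and thresholds, a Lars2 covariate, the replicate block and each library left out; the terms and subsets for the Lars2 split were chosen after seeing the data. The fits were also tested on simulated data. Promoters and overlapping genes came from RefSeq (GRCm38.p6) and GENCODE M21 and were matched by symbol.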

Additional observations from a re-analysis of the deposited data

Results flagged for a closer look

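Of 221 member levels in groups of 4 male libraries with at least 1 CPM in the highest, 13 had 1 library whose gap to the nearest other exceeded Dixon's 95% critical share of the range, which chance gives in about 1 in 20 groups. Fst was flagged 3 times: male day 10 PT library 4 had 4.306 CPM (others 0.2943 to 0.8221), male day 10 Total library 4 had 9.559 CPM (others 0.7343 to 1.007) and male day 5 PT library 3 had 1.053 CPM (others 0.2345 to 0.3513). Skil stood at 114.6 CPM in male day 10 Total library 3 (others 46.57 to 51.16) and at 32.34 CPM in male contralateral PT library 2 (others 18.93 to 20.19). That Total library and male day 5 Total libraries 1 and 2 (Skil at 104.3 and 96.1 CPM) were the lowest of Total in Lars2, at 1710, 1990 and 1880 CPM. The day 10 call of Skil in Total was not lost with a Lars2 covariate. Male day 10 Total library 3 was also the low one for Ski, at 55.45 CPM (others 79.41 to 80.95), and for Acvr1b, at 6.235 CPM (others 8.078 to 8.149). Acvr1b was also low in male day 5 PT library 1, at 6.284 CPM (others 8.125 to 8.32). Single high libraries were seen for Gdf15 in male day 10 PT library 2, at 43.15 CPM (others 13.04 to 17.37), Smad1 in male day 10 PT library 1, at 43.56 CPM (others 23.95 to 26.09), and Bmpr1a in male contralateral PT library 2, at 29.83 CPM (others 21.26 to 22.49). Smad5 reached 84.06 CPM in male day 10 Total library 1 (others 59.21 to 62.47) and Fstl3 5.131 CPM in male day 10 Total library 2 (others 2.791 to 2.95).

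Changes with obstruction that differed between PT and Total in edgeR's interaction test, given as log2 differences, were those of Tgfb2 (1.96 at day 5 and 2.05 at day 10, adjusted p = 0.000105 and 3.82e-05), Bmp2 (3.50 and 2.93, adjusted p = 0.000269 and 0.00183) and Ltbp1 (3.34 and 3.43). At day 5 alone Ltbp2 (-3.14, adjusted p = 0.0283) and Tgfbi (-1.10, adjusted p = 0.0456) were called. Between the sexes, the day 5 change of Id1 differed by -3.63 (adjusted p = 0.00911).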

How the results depend on the processing

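Member counts were recomputed under each alternative. For PT against contralateral, 11 members were called at day 5 and 9 at day 10 with a filter of 5 CPM in 3 libraries. That filter left the other called members untested, and no called member that it kept lost its call. On log2(RPKM + 1), 10 and 9 were called. On that scale 6 and 7 of the members called on counts were tested and lost, Tgfb1, Ltbp1, Ltbp3, Fstl1 and Tgfbi at both days among them. Between the days in PT, the 1 call became 2 with DESeq2, a Lars2 covariate or a term for the Lars2 split, and 0 with library size only, the 5 CPM filter, limma-voom, either RPKM scale, an adjusted p under 0.01 or the high-Lars2 libraries alone. Between the days in Total, the 2 calls became 4 with DESeq2, 1 with library size only and 0 with a Lars2 covariate, either RPKM scale or an adjusted p under 0.01. Total at day 5 had 26 calls with no fold minimum. On log2(RPKM + 1), PT against Total had 3 calls in contralateral kidneys and 12 at day 5. The interaction of fraction and day 5 had 3 calls at an adjusted p under 0.01; that of day 10 had 6 with DESeq2, log2(RPKM + 1) or no fold minimum. With only the groups compared in the fit, 2 members differed between the sexes, without Id1 and Id4. The interaction of sex and day 5 had 4 calls with DESeq2 or a Lars2 covariate, 3 with limma-voom, log2(RPKM + 1) or the split term, and 2 with no filter, library size only, the 5 CPM filter or log2(RPKM + 0.1). Beyond the members that a filter left untested, the cause of these differences was not tested. On log2(RPKM + 1) the interaction reversed for Tgfb2 (-0.31 and -0.27) and Bmp2 (-0.11 and -0.36) at days 5 and 10 and for Ltbp1 (-0.0228) at day 10; on log2(RPKM + 0.1) it reversed for Bmp2 at day 10 (-0.0595). The interaction calls of Tgfb2, Bmp2 and Ltbp1 were lost on both RPKM scales at both days; Ltbp1 stood at 0.0861 at day 5 on log2(RPKM + 1), and at 0.88 and 0.71 on log2(RPKM + 0.1). Leaving out 1 library gave 0 to 2 calls between the days in PT and 0 to 3 in Total, 3 to 5 for the interaction of fraction and day 5, and 0 to 3 for that of sex and day 5. Scaling by library size only shifted the median log2 fold change of all genes by 0.471 and 0.438 in PT and by 0.444 and 0.359 in Total at days 5 and 10, and the share of higher among called genes to 83.2%, 82.9%, 80.4% and 76%, against 59.6%, 62.2%, 59.1% and 60.3% with TMM; for PT against Total at day 10 it gave 10.6% against 23.5%. Of 4450 values of called members under these alternatives, 4203 kept direction and call, 241 lost the call and 6 reversed. With the replicate block, 20 and 20 members were called in PT at days 5 and 10. The block gave 0 calls between the days and 3 in the interaction of sex and day 5. All 7 pairs passed the correlation minimum only in contralateral PT and Total, with 19 calls in place of 18, where Fst was added. The paired fit changed no other call there. Depth limits the members lowest in contralateral PT most: Bmp2 and Nog had 3 reads each there over 7 libraries, Fst 4, Inhba 7, Tgfb1 9 and Ltbp2 and Inhbb 10 each.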

Other observations

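In Total, 18 of 44 tested other pathway genes rose and 5 fell at day 5, and 22 rose and 5 fell at day 10. Over all genes in Total, 19.2% rose and 13.3% fell at day 5, and 20.9% rose and 13.8% fell at day 10. The lists here were also chosen with earlier results of these data known. Fbn2 (fibrillin-2), a microfibril protein that LTBPs join, averaged 18.5 CPM at day 5 and 23.4 at day 10, against 0.25 CPM in contralateral Total. Gdf3, a Nodal-like ligand, averaged 2.21 and 1.79 CPM, against 0.0248 CPM. Of 22 listed TGF-beta targets, 20 rose and 1 fell at day 5, and 21 rose and 1 fell at day 10; Lox, the collagen cross-linking enzyme, averaged 39.9 and 67.6 CPM, against 1.89 CPM. Pmepa1 stood at 0.59 ± 0.17 at day 5 and rose by 1.19 ± 0.17 at day 10.

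Of 8 further genes listed as BMP targets, few could be tested. In PT, Runx2 rose at both days (3.00 ± 0.51 and 3.26 ± 0.50) and Atoh8 at day 10 (1.41 ± 0.48). In Total both rose at both days, Runx2 by 2.76 ± 0.25 and 2.97 ± 0.25 and Atoh8 by 1.72 ± 0.26 and 2.18 ± 0.26, while Hey1 and Msx1 were not called. Chrd (chordin), a BMP antagonist, was the other listed pathway gene higher in PT than in Total, at 2.88 against 1.41 CPM at day 5 and 2.72 against 1.07 CPM at day 10. Endothelial markers (8 genes) summed to 14.3 to 18.1 CPM at day 5, 18.2 to 28 at day 10 and 8.15 to 21.9 in contralateral PT, and podocyte markers (5 genes) to 25.7 to 42.4, 33.7 to 60.3 and 19 to 35.7 CPM.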
